A study of Arabidopsis thaliana with 29 samples.

Results

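The transposable elements of Arabidopsis chromosome 1 are all loci of the sense-strand count table whose identifiers start with AT1TE. They number 7135 of the 59999 loci counted. Identifier numbers are taken here to rise along the chromosome, which was not checked against coordinates, so positions below are positions in the numbering and not distances. RNA was measured in 7-day-old light-grown seedlings, with a day of 16 h and a night of 8 h, on medium with sucrose at a labelled 0.01 (unit not given) in every group. WT (3 libraries) is the reference, and the genotype GFP-HY5 is 2x35S::GFP-HY5/hy5, a hy5 mutant in which a doubled 35S promoter, active in most tissues, drives a fusion of green fluorescent protein and HY5. The group called fusca (3 libraries) is 2x35S::GFP-HY5/hy5 with the fusca phenotype, named after dark-pigmented seedlings. GFP-HY5 and fusca share the transgene and the hy5 mutation, and no group carries the hy5 mutation without the transgene. The series is about how DET1 and COP1, repressors of light-dependent development, act on HY5, a transcription factor of that development.

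Transposable elements are DNA sequences that can move or copy themselves within a genome. Plants hold most of them silent with DNA methylation, histone H3 lysine 9 methylation and small RNAs, and in Arabidopsis they are densest around the centromeres. Transcripts of a silent element therefore appear when silencing weakens, and an element inside or next to a gene can also collect reads of that gene.

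The GFP-HY5 group has 3 columns with the same values throughout, which count as 1 library, so every statement about GFP-HY5 describes 1 library and has no replicate check. Library totals over loci ranged from 11860094 to 12545563 counts. Nothing in the labels says whether the replicates of WT or fusca came from separate plantings, and p-values measure only the spread between these libraries. HY5 itself, the check of the labels, was at 14.1 ± 2.04 CPM in WT (SD, n = 3), 77.3 CPM in GFP-HY5 and 148 ± 32.9 CPM in fusca (SD, n = 3). CPM expresses the reads of an element as a share of its library, after TMM factors have adjusted each library for its composition. Fusca replicate 2 stood apart from the other fusca libraries, with 142 CPM summed over 6 seed and endosperm markers against 1.15 and 1.27 CPM in replicates 1 and 3. The summed level of these markers was between 0.793 and 3.97 CPM in the WT and GFP-HY5 libraries. In fusca replicate 2 CRU3 was at 67.3, CRA1 at 54, SESA1 at 16.8 and OLEO1 at 3.7 CPM. FWA and PHE1, at 0.363 and 0.218 CPM there, were near 0 in every library. Of 3 leaf markers, all 3 were lower in fusca, where they summed to between 1078 and 2425 CPM against 32730.1 to 39446 CPM in WT. The root marker PYK10 was higher in fusca, at 6082 to 11531 CPM against 3447 to 3522 CPM. Of 3 pollen markers, VGD1 and PPME1 were at or near 0 in every library and ACA9 was lower in fusca. The markers that changed moved with the groups or with 1 library, and their part in the results below was not tested. In whole seedlings, fewer cells of a type and less RNA per cell cannot be told apart.

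Most elements of chromosome 1 gave no reads. Of the 7135, 5095 had no count in any of the 7 distinct libraries, and the number with reads was between 767 and 799 in the WT libraries, 1125 in GFP-HY5 and between 984 and 1112 in fusca. The summed level of all elements was 2152, 2102 and 2174 CPM in the WT libraries, 5604 CPM in GFP-HY5, and 4395, 4946 and 4612 CPM in fusca. GFP-HY5 and every fusca library exceeded every WT library, by 2.62-fold and 2.17-fold over the WT mean. As a share of all counts, without TMM factors, the elements were 2.74-fold of WT in GFP-HY5 and 2.95-fold in fusca. Which of these groups was higher thus depended on the scaling. The extra reads came from few elements. The 10 raised elements with the most reads held 65.1% of the reads of all raised elements in fusca and 67.5% in GFP-HY5, and this count was chosen after the values were seen.

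Low counts left 364 elements for the test in fusca against WT, with 1676 more that had reads but too few. Of the 364 tested, 115 were higher and 46 were lower in fusca with edgeR's quasi-likelihood test at a Benjamini-Hochberg adjusted p under 0.05, and 203 were not called. The higher share was 31.6%, where 16.7% of all 21820 tested loci were higher, and the lower share was 12.6%, where 18.4% of all loci were lower. An element that enters the test through high fusca counts alone had to differ, so these shares describe the elements with enough reads. Among the 115 higher elements, 107 were at least 2-fold and 85 at least 8-fold higher by the fitted change. The median log2 fold change of the tested elements was 0.25, also when the 37 elements with no WT read are set at their lower bound, and that of all tested loci was 0.05. With library size in place of TMM the split moved from 71.4% to 85.7% of the called elements being higher (168 higher and 28 lower), while the median of all loci moved from 0.05 to 0.50. Without fusca replicate 2 the counts were 149 higher and 59 lower.

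Many raised elements had no or almost no reads in WT. Of the 115 raised elements, 37 had no read in any WT library and 73 had at most 3 counts in each, while 24 had at least 10 counts in every WT library. Over the 364 tested elements, every fusca library lay above every WT library at 135 (37.1%) and below at 62 (17.0%), against 25.4% and 24.4% over all tested loci. The 115 raised and the 46 lowered elements were called from these same WT and fusca libraries. The direction of their sums in fusca against WT was therefore fixed by the call, and the sums describe only its size. Summed over the 115, the level was 187 ± 10.6 CPM in WT, 3551 CPM in GFP-HY5 and 3044 ± 335 CPM in fusca. Summed over the 46, it was 605 ± 44.5 CPM in WT, 523 CPM in GFP-HY5 and 205 ± 18.3 CPM in fusca. All other elements together were at 1350.2 ± 24.3 CPM in WT, 1530 CPM in GFP-HY5 and 1402 ± 79.2 CPM in fusca (SD, n = 3 for WT and fusca).

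**Figure D1:**
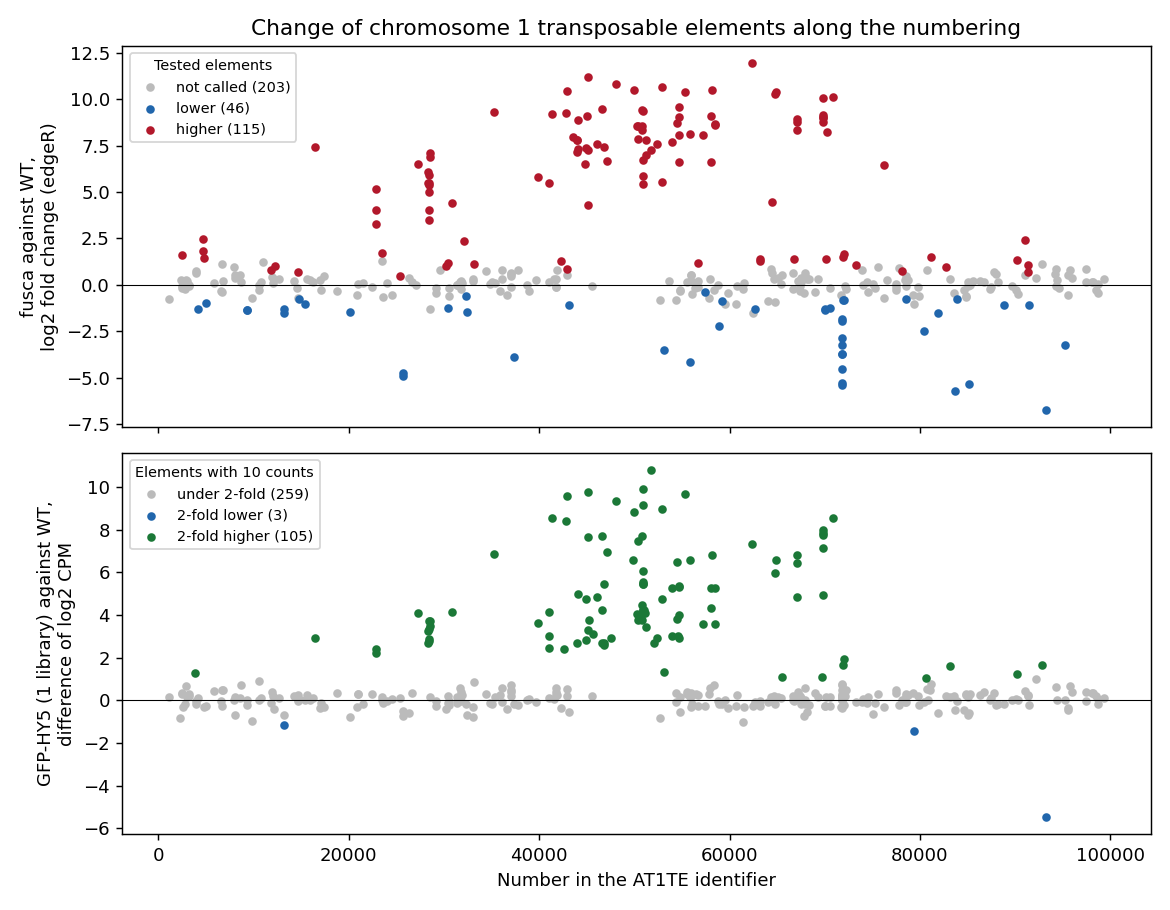
Each point is 1 element of chromosome 1, placed by its identifier number; the upper panel shows the edgeR log2 fold change of the 364 tested elements in fusca against WT, and the lower panel the difference of log2 CPM between the single GFP-HY5 library and the WT mean for the 367 elements with at least 10 counts. Raised elements of both panels crowd between about 40000 and 60000, where fewer of the compared elements were unchanged than elsewhere. Most elements of that stretch had too few reads to be compared. The lowered elements of fusca lie mostly outside it.

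Among tested elements, raised ones were most frequent in the middle of the numbering. An element without WT reads can enter the test only through fusca counts, and all 37 such tested elements were called higher. The shares of tested elements therefore depend on how many elements of a window had WT reads. The numbering was divided into 20 windows of 5000 numbers, which held between 87 and 929 elements each. In window 50000 to 54999, 22 of 28 tested elements were higher in fusca, and in window 45000 to 49999, 10 of 11 were. Window 40000 to 44999 followed with 14 of 22 and window 25000 to 29999 with 12 of 21. Among all elements, with or without reads, 22 of 929 were raised in window 50000 to 54999. The counts were 10 of 740 in window 45000 to 49999 and 12 of 248 in window 25000 to 29999. By that count the middle windows were not the richest. No tested element was higher in windows 5000 to 9999, 85000 to 89999 and 95000 to 99999, which had 13, 14 and 13 tested elements. Lowered elements were most frequent in window 70000 to 74999, with 12 of 26 tested.

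Broad spans, chosen after the values were seen, sum this up. Numbers 40000 to 59999 hold 44.2% of all elements, 55 of the 115 raised ones and 6 of the 46 lowered ones, and 61.8% of their 89 tested elements were higher. Numbers 0 to 39999 had 31 of 128 tested elements higher and 15 lower. Numbers 60000 to 99999 had 29 of 147 higher and 25 lower. The middle span thus had a share of the raised elements (47.8%) close to its share of all elements, but fewer of its elements reached the test.

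**Figure D2:**
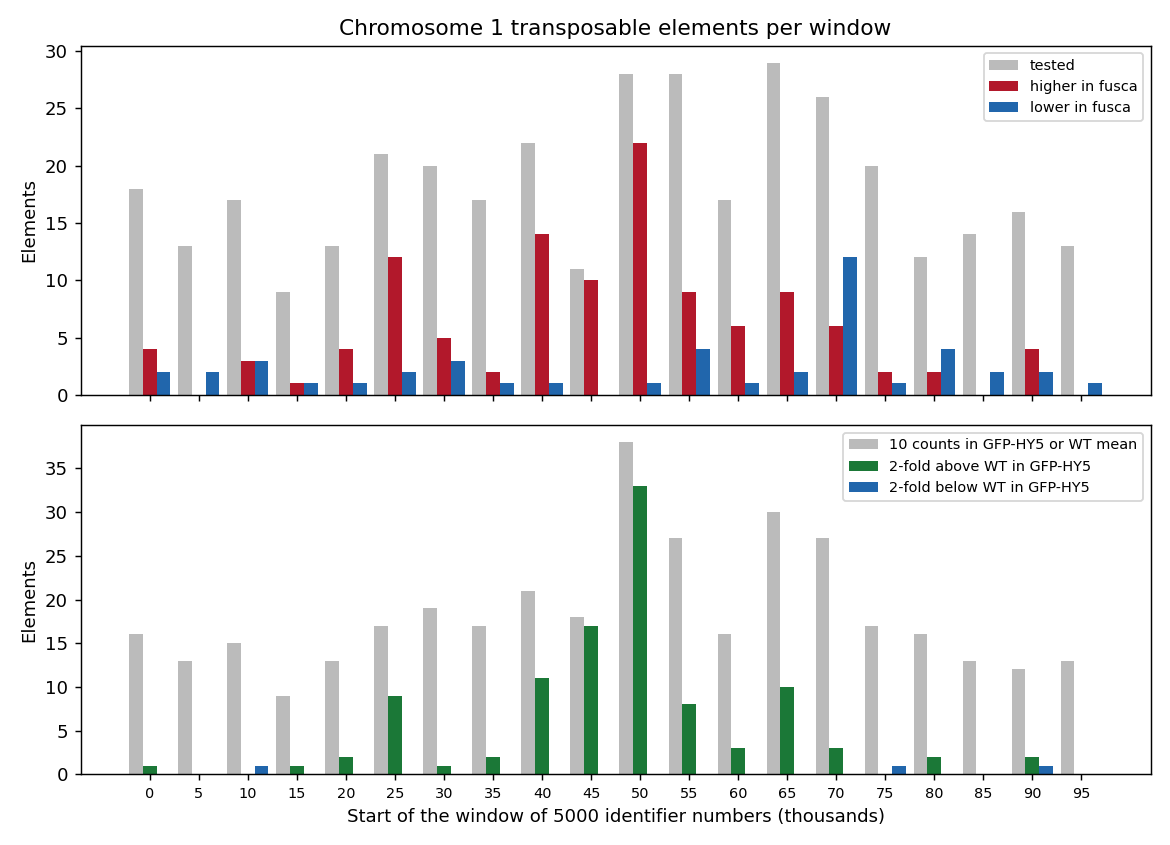
Bars count the elements of each window of 5000 identifier numbers that were compared, higher or lower, in fusca against WT (upper panel, edgeR) and in the single GFP-HY5 library against WT (lower panel, 2-fold). Windows 45000 and 50000 have 10 of 11 and 22 of 28 tested elements higher in fusca, and window 70000 has the most lowered elements, 12.

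The levels by window showed where fusca and GFP-HY5 parted. In window 50000 to 54999 the summed level was 38.3, 34.9 and 38.7 CPM in the WT libraries, 1351 CPM in GFP-HY5, and 414, 373 and 426 CPM in fusca. In window 45000 to 49999 it was 20.4, 23.5 and 25.7 CPM in WT, 757 CPM in GFP-HY5, and 383, 280.4 and 413 CPM in fusca. Fusca exceeded the WT mean 10.8-fold and 15.4-fold in these windows and GFP-HY5 36.2-fold and 32.6-fold. The GFP-HY5 sum thus lay above every fusca library in both. Few elements carried most of this excess. In window 45000 to 49999, AT1TE45135 held 46% of the GFP-HY5 level, at 348 CPM against 7.15 to 8.35 CPM in fusca. In window 50000 to 54999, AT1TE51735 was at 619.6 CPM in GFP-HY5 and 46.7 to 51.7 CPM in fusca. AT1TE50860 there was at 277 CPM in GFP-HY5 and 11.1 to 21.6 CPM in fusca.

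In the window just before them, 40000 to 44999, the GFP-HY5 level of 624 CPM lay just below the fusca libraries at 633, 788 and 682 CPM, against 92.5, 100.1 and 93.6 CPM in WT. The order was turned in window 20000 to 24999, with 80.1, 84.8 and 84.5 CPM in WT, 206 CPM in GFP-HY5, and 476, 622 and 495 CPM in fusca. There 1 element, AT1TE22850, held 86.2% of the fusca reads. Window 80000 to 84999 was the one with the lowest fusca level relative to WT, at 42.6, 45 and 42 CPM against 102, 96.5 and 118 CPM, while GFP-HY5 was at 91.2 CPM. Most of that difference was 1 element, AT1TE83640, without which the window summed to 41.5, 44 and 40.8 CPM in fusca, 50, 46.3 and 51.3 CPM in WT and 50 CPM in GFP-HY5.

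**Figure D3:**
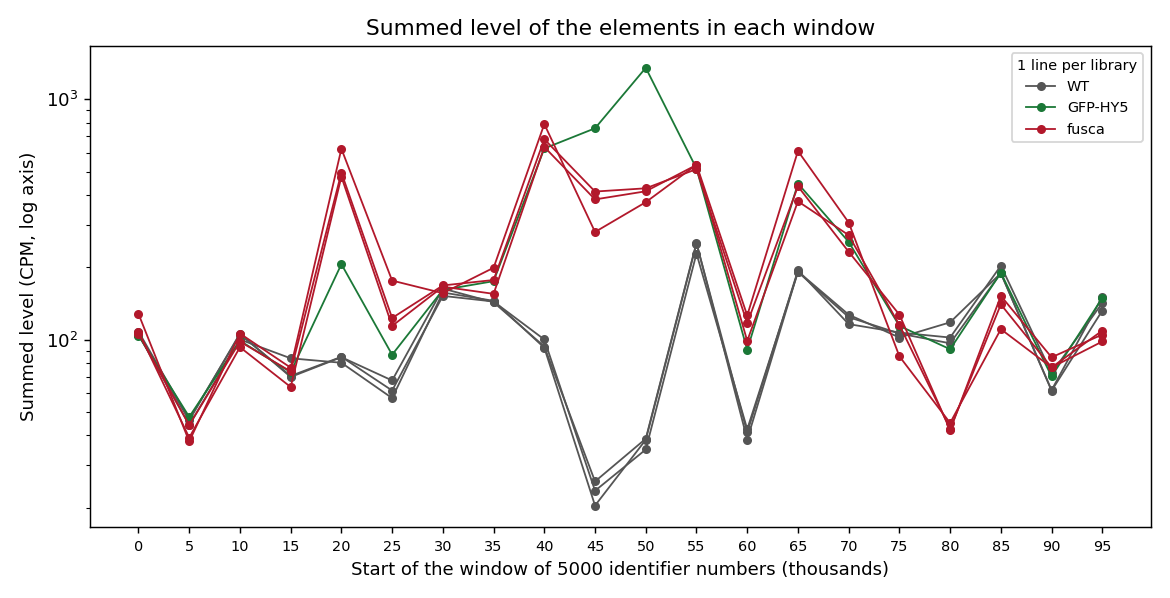
Each line is 1 library, and each point is the CPM summed over the elements of a window of 5000 identifier numbers, on a log axis. The WT lines dip to between 20.4 and 38.7 CPM in windows 45000 and 50000, where the fusca lines lie between 280.4 and 426 CPM and the GFP-HY5 line at 757 and 1351 CPM.

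The strongest gains in fusca were at elements with almost no WT reads, and GFP-HY5 showed them too. AT1TE42890 had 2, 1 and 6 counts in the WT libraries, 3515 in GFP-HY5, and 4938, 6944 and 5720 in fusca, a log2 fold change of 10.45 ± 0.41 in fusca (SE, edgeR adjusted p = 4.41e-07). AT1TE55320 had 0, 0 and 7 counts in WT, 2586 in GFP-HY5, and 4460, 4521 and 4331 in fusca, a log2 fold change of 10.38 ± 0.54 (SE, edgeR adjusted p = 1.3e-06). At both, every fusca library and the GFP-HY5 library lay above all WT libraries. AT1TE70815 had 1, 0 and 3 WT counts, 1143 in GFP-HY5, and 2443, 2440 and 1755 in fusca, a log2 fold change of 10.15 ± 0.42 (SE, edgeR adjusted p = 5.2e-07). Most of these few WT reads were in WT replicate 3. Without it the log2 fold change of AT1TE42890 was 11.48 and that of AT1TE70815 was 11.47, and AT1TE55320 was left with no WT read. Over the 89 raised elements with at most 10 counts in every WT library, the WT libraries held 68, 57 and 129 counts in all, GFP-HY5 36411, and fusca 31290, 34946 and 32852. These elements were chosen by their few WT counts and their fusca call, which fixed the direction of that difference in fusca.

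Where WT held 1 to 3 reads in all, the change is a ratio of levels with an exact counting interval at the 95% level, which covers counting error only. AT1TE48035 had 0, 0 and 3 counts in WT, 1718 in GFP-HY5, and 2861, 2248 and 3040 in fusca, a ratio of 2001 in fusca (685 to 9706) and 1621 in GFP-HY5 (554 to 7866). AT1TE52950 had 1, 0 and 2 counts in WT, 1406 in GFP-HY5, and 2371, 2418 and 2394 in fusca, a ratio of 1764 in fusca (603 to 8556) and 1326 in GFP-HY5 (453 to 6439). In both, all transgenic libraries lay far above WT and GFP-HY5 lay below all fusca libraries in CPM. AT1TE49955 had 1, 0 and 0 WT counts, 970 in GFP-HY5, and 1113, 253 and 1229 in fusca, so fusca replicate 2 held fewer reads than the others. Its ratio was 1912 in fusca (343 to 75545). These ratios rest on few WT reads in 1 or 2 libraries. WT replicate 3 held all WT reads of AT1TE48035, and the fitted log2 fold change of AT1TE52950 was 10.64, or 11.58 without that library. AT1TE49955 had no WT read without WT replicate 1.

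Where WT held no read, the fold is a lower bound against a floor of 3 counts per library. AT1TE62360 had 354, 943 and 396 counts in fusca and 295 in GFP-HY5, at least 141-fold above WT in fusca, at least 89.6-fold without fusca replicate 2, and at least 92.8-fold in GFP-HY5. AT1TE45145 had 329, 319 and 372 counts in fusca and 366 in GFP-HY5, at least 83.5-fold above WT in fusca and at least 115-fold in GFP-HY5. AT1TE58105 was at least 51.1-fold and 63.5-fold above WT in fusca and GFP-HY5. The neighbours AT1TE64825 and AT1TE64830 were at least 44.9-fold and 48.7-fold above WT in fusca, although AT1TE64830 had 251 and 325 counts in fusca replicates 1 and 3 and 32 in replicate 2. The bounds of the 37 such elements ran from 3.1-fold to 141-fold in fusca.

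Raised elements often sat close together in the numbering, though not always as direct neighbours. Joining raised elements whose numbers differ by at most 50 put 45 of the 115 into 11 clusters of 3 or more, while the same rule put 81 of all 364 tested elements into 20 clusters. The largest cluster, AT1TE28395 to AT1TE28505, held 8 raised elements among 10 loci and summed to 0.813, 1.26 and 0.905 CPM in WT, 16.6 CPM in GFP-HY5, and 32.3, 65.7 and 41 CPM in fusca. GFP-HY5 lay between WT and fusca there, and fusca replicate 2 was the highest. The next cluster, AT1TE50775 to AT1TE50895, was looser, with 7 raised elements among 24 loci, of which 7 were tested. It summed to 0.0904, 0 and 0.804 CPM in WT, 433 CPM in GFP-HY5, and 71.2, 50.1 and 73.1 CPM in fusca. The 5 neighbours AT1TE69795 to AT1TE69815 summed to 0.0904, 0 and 1.01 CPM in WT, 196 CPM in GFP-HY5, and 149, 333 and 193 CPM in fusca. Here GFP-HY5 fell within the fusca range, and fusca replicate 2 was again the highest. AT1TE54640 to AT1TE54655, 4 neighbours without a WT read, summed to 16 CPM in GFP-HY5 and 16.5, 13.1 and 20.9 CPM in fusca. Each cluster sum covers raised elements only, so its direction in fusca against WT was fixed by the call. The p-values and levels of neighbours are not independent where 1 transcript crosses several elements.

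A smaller group of raised elements already had reads in WT. AT1TE22850, which is outside the rule for named elements and was chosen for its share of the reads, had 290, 306 and 285 counts in WT, 1668 in GFP-HY5, and 6035, 7440 and 6388 in fusca. Its log2 fold change in fusca was 4.06 ± 0.18 (SE, edgeR adjusted p = 6.9e-07), and its GFP-HY5 level was 2.41 above WT in log2 CPM. GFP-HY5 lay between the WT and the fusca libraries. Its neighbours AT1TE22855 and AT1TE22865 were also raised, with log2 fold changes of 3.30 and 5.14, and fusca replicate 2 stood apart at both, with 268, 37 and 311 counts in the fusca libraries at the former and 38, 129 and 35 at the latter. The other 22 raised elements with at least 10 counts in every WT library changed by log2 0.49 (AT1TE25360) to 1.69 (AT1TE23525).

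In the GFP-HY5 library, gains were common and losses were rare. Of the 367 elements with at least 10 counts in GFP-HY5 or in the WT mean, 105 (28.6%) were at least 2-fold above the WT mean and 3 (0.817%) at least 2-fold below. Over all 21597 loci compared in this way, 2.50% were at least 2-fold above and 0.986% below. An element with no WT read enters only through GFP-HY5 counts, so the share of elements is a description. Of the 105, 78 were at least 8-fold above WT. The 105 covered a narrower part of the numbering than the raised elements of fusca: the middle 50% of their numbers ran from 44910 to 55795, against 33200 to 62360 for fusca and 40180 to 65290 for all elements. These sets follow different rules, 2-fold in 1 library against an adjusted p, and 27 of the 105 were outside the fusca test. Whether the rules give the narrower range was not tested. Window 50000 to 54999 held 33 of the 105, among 38 elements compared and 929 in all. Window 45000 to 49999 held 17, among 18 compared and 740 in all. Window 40000 to 44999 held 11, among 21 compared and 830 in all. Every other window had fewer elements. Window 25000 to 29999 held 9, among 17 compared and 248 in all. Fusca and GFP-HY5 are compared with the same WT libraries, so their gains are not independent.

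Of the 105 elements, 75 were also higher in fusca by the test, 27 had too few fusca and WT counts to be tested, 2 were tested and not called, and 1 was lower in fusca. That one, AT1TE53070, had 14, 13 and 10 counts in WT, 35 in GFP-HY5, and 2, 1 and 1 in fusca, and it was named after its values were seen. Over all 21820 tested loci 16.7% were higher in fusca. The matching overlap over all loci at least 2-fold above WT in GFP-HY5 was not counted. Both comparisons use the same WT libraries, so the 75 do not show an overlap particular to these elements. Of the 115 elements raised in fusca, GFP-HY5 lay above every WT library for 95, within the WT range for 13 and below it for 7. These elements were selected against the same WT libraries. Of all loci higher in fusca, 43.7% had GFP-HY5 above every WT library and 18.8% below, and of all tested loci 29.5% and 28.8%. Set against the fusca libraries, GFP-HY5 was above all 3 at 20 of the 115, within their range at 27 and below all 3 at 68. The 115 were selected for high fusca levels, which favours GFP-HY5 below fusca. The matching shares over all loci higher in fusca were not computed, so these counts are a description.

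A few elements had far more reads in GFP-HY5 than in fusca. AT1TE51735 had 1, 0 and 9 counts in WT, 7030 in GFP-HY5, and 768, 643 and 754 in fusca. AT1TE45135 had 0, 2 and 10 counts in WT, 3947 in GFP-HY5, and 124, 104 and 107 in fusca. AT1TE50860 had 1, 0 and 4 counts in WT, 3142 in GFP-HY5, and 309, 153 and 323 in fusca. At these elements GFP-HY5 exceeded the fusca mean by 3.64, 5.47 and 4.00 in log2 CPM, and fusca in turn lay above all WT libraries. In fusca against WT their log2 fold changes were 7.26 ± 0.50, 4.32 ± 0.52 and 6.75 ± 0.54 (SE, edgeR adjusted p = 5.72e-06, 0.000168 and 1.33e-05), and 9.85, 6.30 and 8.38 without WT replicate 3. AT1TE51735 and AT1TE45135 were the elements with the most reads in GFP-HY5, and they made up 45.9% and 46% of the GFP-HY5 level of their windows.

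The 8 consecutive identifiers AT1TE50860 to AT1TE50895 were all at least 2-fold above fusca in GFP-HY5, a run picked after the values were seen. AT1TE50875 had no WT read, 1047 counts in GFP-HY5, and 93, 86 and 111 in fusca, at least 329-fold above WT in GFP-HY5 and at least 23.7-fold in fusca. Its neighbour AT1TE50870 had 8, 1 and 11 counts in fusca and 122 in GFP-HY5, and AT1TE50885 had 38, 4 and 36 in fusca and 93 in GFP-HY5. The excess over fusca was 4.00 in log2 CPM at AT1TE50860, 1.52 at AT1TE50890 and 1.84 at AT1TE50895, so the elements of the run did not share 1 ratio. AT1TE49850, also picked for its values, had 0, 1 and 0 counts in WT, 204 in GFP-HY5, and 3, 4 and 2 in fusca. Over the 430 elements with at least 10 counts in GFP-HY5 or the fusca mean, GFP-HY5 was at least 2-fold above fusca at 72 (16.7%) and below at 54 (12.6%), against 12.2% and 8.05% over all loci. Of these 72, window 50000 to 54999 held 17 and window 70000 to 74999 held 12. Not all of them were gains over WT. Most of those in window 70000 to 74999 lay between AT1TE71760 and AT1TE71840, where fusca was low. The lowered elements there summed to 50.9 CPM in GFP-HY5, 41.7 to 48.5 CPM in WT and 4.92 to 5.68 CPM in fusca. Of the 54, window 25000 to 29999 held 11 and window 40000 to 44999 held 8.

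**Figure D4:**
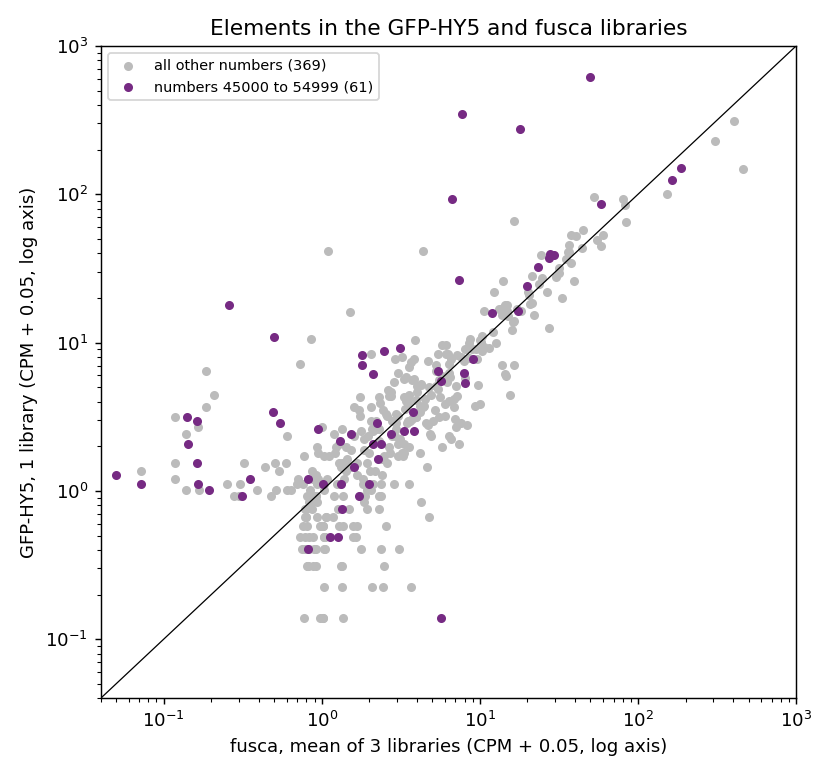
Each point is 1 of the 430 elements with at least 10 counts in GFP-HY5 or in the fusca mean, with the fusca mean of 3 libraries on the x axis and the single GFP-HY5 library on the y axis, both as CPM + 0.05 on log axes; the line marks equal levels. Several elements numbered 45000 to 54999 lie far above the line, with AT1TE51735 at 619.6 CPM in GFP-HY5 and 49.6 CPM in fusca.

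Other elements gained reads in fusca and had few in GFP-HY5. AT1TE45020 had no WT read, 1 count in GFP-HY5, and 61, 84 and 98 in fusca, at least 19.9-fold above WT in fusca. AT1TE64490 had 2, 1 and 2 counts in WT, 2 in GFP-HY5, and 47, 58 and 53 in fusca, a log2 fold change of 4.46 ± 0.40 in fusca (SE, edgeR adjusted p = 2.59e-05). AT1TE91070 had 6, 2 and 6 counts in WT, 2 in GFP-HY5, and 30, 41 and 32 in fusca, a log2 fold change of 2.41 ± 0.42 (SE, edgeR adjusted p = 0.00167). At AT1TE64490 GFP-HY5 fell within the WT range. AT1TE45020 lies within the same window as AT1TE45135, at which GFP-HY5 held the more reads. AT1TE70190 had no WT read, 4 counts in GFP-HY5, and 32, 65 and 34 in fusca, at least 10.9-fold above WT in fusca. AT1TE04725 had 6, 12 and 4 counts in WT, 3 in GFP-HY5, and 47, 13 and 47 in fusca, with a log2 fold change of 1.82 ± 0.55 (SE, edgeR adjusted p = 0.0283). That call ended without WT replicate 1 or 3 or fusca replicate 1 or 3, with log2 fold changes between 1.58 and 1.71.

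The lowered elements had reads in WT and, mostly, in GFP-HY5. AT1TE83640 had 579, 557 and 666 counts in WT, 468 in GFP-HY5, and 16, 13 and 17 in fusca, a log2 fold change of -5.73 ± 0.21 (SE, edgeR adjusted p = 3.47e-07). AT1TE85165 had 40, 64 and 85 counts in WT, 41 in GFP-HY5, and 1, 1 and 4 in fusca, a log2 fold change of -5.34 ± 0.54 (SE, edgeR adjusted p = 5.17e-05) and of -6.22 without fusca replicate 3. The neighbours AT1TE25675 and AT1TE25680 had log2 fold changes of -4.94 and -4.74, with 30 and 13 counts in GFP-HY5 against 33 to 48 and 16 to 28 in WT, and that of AT1TE25680 was -5.54 without fusca replicate 1. GFP-HY5 lay below the WT mean by 0.44 (AT1TE83640) to 0.75 (AT1TE25680) in log2 CPM at these 4 elements, and above every fusca library. Of the 46 lowered elements, GFP-HY5 was below every WT library at 23, within the WT range at 15 and above it at 8, while 48.7% of all loci lower in fusca had GFP-HY5 below every WT library and 15.4% above.

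AT1TE93275 was the exception, with 126, 113 and 111 counts in WT, 1 in GFP-HY5, and 1, 3 and 0 in fusca. Its log2 fold change in fusca was -6.74 ± 0.45 (SE, edgeR adjusted p = 4.47e-06), or -7.96 without fusca replicate 2, and GFP-HY5 differed from WT by -5.47 in log2 CPM. All 4 transgenic libraries lay far below all WT libraries. The only other elements at least 2-fold below WT in GFP-HY5 were AT1TE79350, with 7 counts in GFP-HY5 against 32, 16 and 18 in WT, and AT1TE13245, with 33 against 71, 61 and 83. AT1TE13245 was lower in fusca too, with a log2 fold change of -1.30 ± 0.33 (SE, edgeR adjusted p = 0.0125), but not without WT replicate 3 (-1.08) or with library size in place of TMM (-0.84). AT1TE79350 had 13, 12 and 19 counts in fusca and was not called (edgeR adjusted p = 0.0542). AT1TE52670 and AT1TE61460, the next in GFP-HY5, lay below every WT library by less than 2-fold. In fusca they were not called, with edgeR adjusted p = 0.0539 and 0.64. Without fusca replicate 2 both were lower, with log2 fold changes of -1.22 and -0.70, and AT1TE52670 was also lower with DESeq2 (-0.85) and with no count filter (-0.83). With library size in place of TMM the direction of AT1TE61460 turned to 0.19.

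The lowered elements formed 1 cluster of 3 or more. It ran from AT1TE71760 to AT1TE71840, with 9 lowered elements among 16 loci, and summed to 41.7, 44.8 and 48.5 CPM in WT, 50.9 CPM in GFP-HY5, and 4.92, 5.08 and 5.68 CPM in fusca. The fusca libraries lay well below WT, a direction fixed by the call of these elements, and GFP-HY5 lay just above WT. Within it AT1TE71790 had 67, 69 and 67 counts in WT, 72 in GFP-HY5, and 3, 0 and 3 in fusca, a log2 fold change of -5.43 ± 0.45 (SE, edgeR adjusted p = 1.53e-05). AT1TE71785 and AT1TE71770 had log2 fold changes of -5.31 and -4.57, and of -6.11 and -5.66 without fusca replicate 1. This cluster supplied 9 of the 12 lowered elements of window 70000 to 74999.

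**Figure D5:**
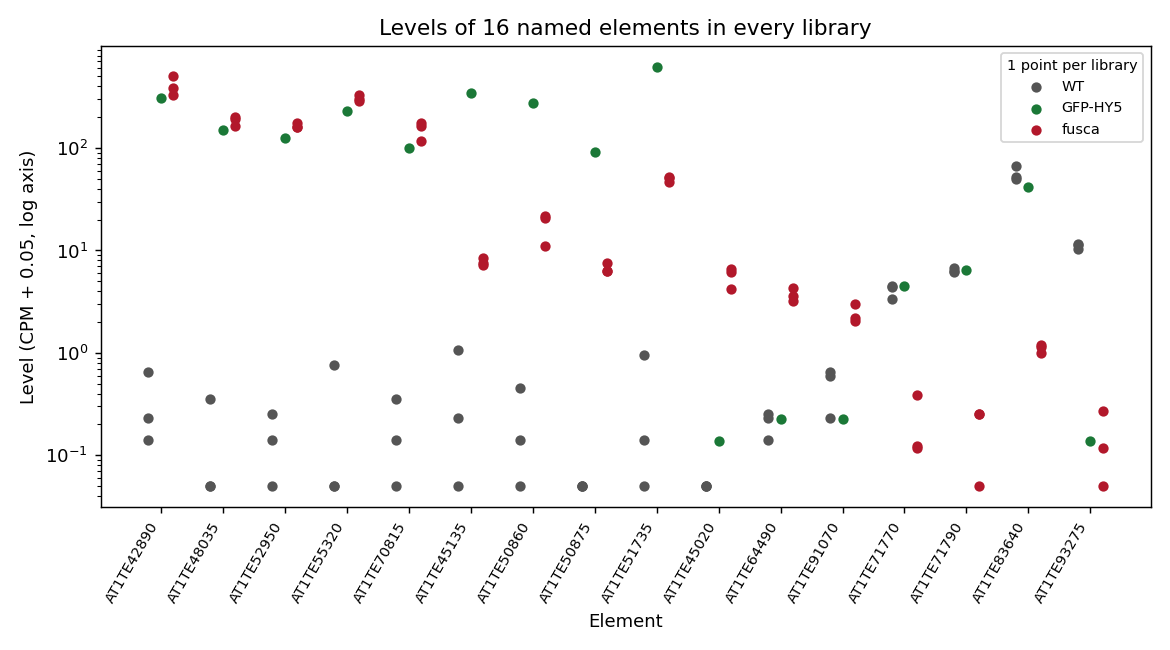
Each point is 1 library, giving CPM + 0.05 on a log axis for 16 named elements; from left to right, 5 are raised in both transgenic groups, 4 are highest in GFP-HY5, 3 are raised in fusca with GFP-HY5 near WT, and 4 are lowered in fusca. AT1TE93275 is low in GFP-HY5 as well as in fusca, at 0.0881 CPM and at most 0.218 CPM against 10.2 to 11.4 CPM in WT.

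None of the 5 elements with the most reads in WT was called higher in fusca. AT1TE88825 had 1287, 1136 and 1106 counts in WT, 1092 in GFP-HY5, and 829, 587 and 888 in fusca, a log2 fold change of -1.06 ± 0.16 (SE, edgeR adjusted p = 0.000678). AT1TE58840 had 826, 803 and 779 counts in WT, 748 in GFP-HY5, and 278, 181 and 257 in fusca, a log2 fold change of -2.20 ± 0.16 (SE, edgeR adjusted p = 8.43e-06). Both were lower in all fusca libraries than in any WT library. AT1TE67380 and AT1TE98440 were not called, with log2 fold changes of -0.33 and -0.31 (edgeR adjusted p = 0.0681 and 0.0994) that turned to 0.12 and 0.14 with library size in place of TMM. Without fusca replicate 2 both were called lower, with log2 fold changes of -0.33 and -0.28.

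Chromosomes differed in the share of raised elements, and the differences were not tested. Of the tested elements 31.6% were higher in fusca on chromosome 1, 12.9% on chromosome 2, 19% on chromosome 3, 47.9% on chromosome 4 and 19.3% on chromosome 5. The summed level in GFP-HY5 and fusca was 2.62-fold and 2.17-fold of the WT mean on chromosome 1, 1.03-fold and 0.72-fold on chromosome 2, 1.08-fold and 1.34-fold on chromosome 3, 4.47-fold and 2.71-fold on chromosome 4, and 1.02-fold and 1.02-fold on chromosome 5. Chromosome 4 thus exceeded chromosome 1 in both.

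Genes of transposon silencing were described from a list. Of 27 such genes 26 were tested, and 2 were higher and 2 were lower in fusca, where 16.7% of all tested loci were higher and 18.4% lower, with a median log2 fold change of 0.10 beside 0.05 over all loci. CMT3, a DNA methyltransferase for CHG sites, was at 41.2, 40 and 32.8 CPM in WT, 45.2 CPM in GFP-HY5, and 17, 21.3 and 25.4 CPM in fusca, a log2 fold change of -0.84 ± 0.18 (SE, edgeR adjusted p = 0.00506). ROS1, a DNA glycosylase that removes methylated cytosine, was at 25.5, 24.3 and 18.3 CPM in WT, 15.1 CPM in GFP-HY5, and 8.08, 7.18 and 14.6 CPM in fusca, a log2 fold change of -1.19 ± 0.27 (SE, edgeR adjusted p = 0.00739). Both were lower in every fusca library than in any WT library. The histone deacetylase HDA6 and the RNA polymerase RDR2 of the small RNA pathway were higher, with log2 fold changes of 0.62 and 0.61 (edgeR adjusted p = 0.0216 and 0.03), RDR2 being named because the count is small. In GFP-HY5 the 27 genes lay between -0.66 and 0.53 from WT in log2 CPM, with none past 2-fold. DDM1, the chromatin remodeller that keeps elements methylated, was at 18.2, 16 and 14.6 CPM in WT, 17.9 CPM in GFP-HY5, and 13.7, 24 and 17 CPM in fusca. The DNA methyltransferase MET1 was at 85.4 ± 8.64 CPM in WT, 87.6 CPM in GFP-HY5 and 61.6 ± 11.5 CPM in fusca (edgeR adjusted p = 0.0573), and neither gene was called.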

How the data were processed

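RNA was measured as polyadenylated RNA of whole seedlings in 9 samples (7 distinct libraries). The ChIP-seq samples of the series were not analysed here. The authors deposited raw counts per locus on the sense strand, per the file headers. Trim Galore, STAR, HTSeq, deepTools and the build TAIR10 are named in the submitters' processing notes, without versions or settings. How reads that map to several elements were counted, and whether the library kit marks strand, is not given in the sources used here. Near-identical copies can therefore share or lose reads, and an element within a gene cannot always be told from it. Among AT1TE loci with at least 10 counts in 1 library, none had counts equal to another AT1TE locus in every library, and 1 had counts equal to a gene's. In each library 48.4% to 48.9% of the reads were on no feature. Rows that name no locus were left out of all totals and fits.

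The 3 identical GFP-HY5 columns were used once, so that arm has no test where 1 had been planned for separate libraries. Counts of WT, GFP-HY5 and fusca were fitted together with edgeR 4.0.16 in R 4.3.3 (filterByExpr on WT and fusca, TMM factors, glmQLFit, glmQLFTest, Benjamini-Hochberg over all tested loci, threshold 0.05). TMM factors ran from 0.839 to 0.889 for WT and from 1.11 to 1.26 for fusca, and GFP-HY5 had 0.911. GFP-HY5 was described by log2 CPM differences (prior count 2) for loci with at least 10 counts. Named elements are the largest changes in each comparison whose groups do not overlap and whose higher level is at least 1 CPM, the 5 with most WT reads, the members of the largest clusters, AT1TE51735, and those differing most between fusca and GFP-HY5. Others are said to be chosen after their values were seen. The members, the silencing list (27 genes) and the marker lists were chosen with earlier results of these data known. The statistics were tested on simulated data, and the alternatives included DESeq2 1.42.0.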

Additional observations from a re-analysis of the deposited data

Results flagged for a closer look

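At AT1TE91070 fusca and GFP-HY5 lay on opposite sides of WT in CPM. All fusca libraries (2.02, 2.97 and 2.14 CPM) lay above, and the GFP-HY5 library (0.176 CPM) lay below, the WT libraries (0.542, 0.18 and 0.603 CPM). GFP-HY5 had 2 counts and WT replicate 2 also had 2, so the counts do not show GFP-HY5 below WT. At AT1TE98440 GFP-HY5 was at 53.1 CPM, above WT (47.2, 48.8 and 44.5 CPM), and fusca was at 35.6, 36.6 and 41.4 CPM, below it. Its fusca change was not called, and its sign turned with library size only. Neither difference was tested, since GFP-HY5 is 1 library.

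Elements left out of the test in fusca for low counts also held reads in GFP-HY5. Of these, 36 had at least 10 GFP-HY5 counts and 32 of the 36 lay above every WT library. Low WT and fusca counts kept them from the test and GFP-HY5 counts picked them, so that choice favours GFP-HY5 above WT. The matching share over all untested loci was not computed. AT1TE49850 had the most, with 204 counts in GFP-HY5 and 9 in the 3 fusca libraries together.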

How the results depend on the processing

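The count of raised elements stayed within 1.5 times of 115 under every alternative run, between 110 (DESeq2) and 171 (no count filter), and between 116 and 149 when 1 library was left out. The count of lowered elements was 28 with library size only against 46, and between 31 and 59 with 1 library left out. The replicate block gave 111 higher and 40 lower. Same-numbered WT and fusca libraries had deviations that correlated at -0.045, -0.115 and -0.2, and no WT library correlated best with its own number. With 3 libraries per group this cannot show whether equal numbers were prepared together, which the labels do not say. The count at least 2-fold below WT in GFP-HY5 was 5 with a prior count of 0.5, 8 with a minimum of 5 counts, and between 3 and 5 with 1 WT library left out. The log2 ratio of the summed level was 1.12 in fusca, and 1.26 with upper-quartile factors, 1.56 with library size only, 1.03 without the elements of most reads (AT1TE88825, AT1TE22850 and AT1TE51735), and 1.07 to 1.16 with 1 library left out. For GFP-HY5 it was 1.39, and 1.45 with library size only, 1.24 without those elements, and 1.37 to 1.40 with 1 library left out. GFP-HY5 thus lay above fusca with TMM and below it with library size only. Windows of 2500 numbers put the most raised elements, 14, at 50000 to 52499. The directions of AT1TE61460, AT1TE67380 and AT1TE98440 turned with library size only, at log2 0.19, 0.12 and 0.14, where the median of all loci moved to 0.50. Of the other values of named elements in fusca, 795 kept their side of the threshold, 6 passed it only under the alternative and 6 no longer passed it. The cause of these shifts was not tested. Of the values of named elements in GFP-HY5, 112 moved by less than the SD of WT and 18 by more, none changing sign. Counts near 0 in WT limit the folds of most raised elements, and 1 library limits every GFP-HY5 value.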
